A study of Homo sapiens with 12 samples.

Results

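Open chromatin was followed across the extended loci of 4 genes of the mature intestinal epithelium, VIL1, GPA33, CDH17 and KRT20. Each locus was the gene body with 50 kb added on either side, which in hg38 gave chr2:218369121-218503295 for VIL1, chr1:167002836-167216479 for GPA33, chr8:94077162-94267303 for CDH17 and chr17:40825889-40935242 for KRT20. Every region of the count table that overlapped one of these windows was taken, by position and by no measured value. This gave 27 of 30170 regions, of which 8 lay at VIL1, 6 at GPA33, 10 at CDH17 and 3 at KRT20. Regions are numbered within a locus from the lowest coordinate to the highest.

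The regions come from ATAC-seq, in which a transposase cuts and tags open DNA, of HCT116 cells, an established line from a poorly differentiated human colorectal carcinoma. The cells had been given EHF, a transcription factor of the ETS family, or CDX1, a caudal-type homeobox factor, or the pair together (EHF+CDX1), and a line with an empty vector (EV) served as control, with 3 libraries per line and 12 in all. EHF was given as a pcDNA3.1 plasmid with selection of clones resistant to G418, and CDX1 by an MSCV-IRES-GFP retrovirus with sorting of GFP-positive cells. The EHF+CDX1 line was the CDX1 line transfected with the EHF plasmid and selected again, so it had been through both procedures. The methods describe an empty-vector control for the plasmid and name none for the retrovirus. The difference of EHF+CDX1 from EV cells cannot be told apart from effects of the retrovirus, the sorting or the clones picked. Its difference from CDX1 cells cannot be told apart from effects of the added transfection and cloning. The comparisons ask whether accessibility at these genes differs when EHF, CDX1 or both are present. The labels do not say that the 3 libraries of a line came from separate cultures, so p-values measure only the spread between these libraries, which may be technical.

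Villin, the product of VIL1, bundles actin in the microvilli of the intestinal brush border. GPA33 encodes the A33 antigen, a cell-surface glycoprotein of the immunoglobulin superfamily found on intestinal epithelial cells, CDH17 encodes liver-intestine cadherin, a calcium-dependent adhesion molecule, and KRT20 encodes an intermediate filament keratin of differentiated intestinal epithelium. CDX proteins bind sequences built around TTTATG or TTTATT, and ETS proteins bind sequences built around GGAA.

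The libraries were shallow, and this sets how firmly any value at these loci can be read. Totals ran from 567366 to 2443334 counts, but exons of the introduced EHF and CDX1 sequences and regions that match mitochondrial DNA took most of them in 11 of the 12 libraries, leaving 147970 to 912112 counts for the other 29965 regions. EHF exons held 91907 to 1536042 counts in libraries of lines given EHF and 30 to 100 in the others, and CDX1 exons held 77147 to 1916479 against 18 to 104 in the others. EHF+CDX1 replicate 2 stood apart as the deepest library outside these sequences, with 912112 counts and 67.1% of the counts its line had at the 27 regions. Epithelial markers had regions within 5 kb of a start at 5 of 6 genes (EPCAM, KRT8, KRT18, KRT19 and CLDN4 but not CDH1). Over their 17 regions the summed level was 53.2 to 69.1 CPM (counts after scaling libraries to 1 total) in EV, 63.4 to 78.7 with EHF, 64.4 to 73.3 with CDX1 and 84.9 to 111 with both factors. Markers of other cell types had 6 regions at 4 of 7 genes (PTPRC, COL1A1, COL3A1 and SYP), summed to 27.1 to 33.8 CPM in EV and 22.0 to 33.2 in EHF+CDX1 libraries, with no region at CD3E, PECAM1 or ALB.

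Sequences of 9 regions at VIL1, GPA33 and KRT20 that the results below turn on are shown first, on the plus strand of hg38, so that the letters can be set beside the values. A region is printed from the base after its listed start to its listed end. Capitals mark the CDX cores TTTATG and TTTATT or the ETS cores AGGAAGT and CGGAAGT on either strand. The VIL1 regions are the pair before the gene's start and the pair in its introns, at chr2:218417798-218417948, chr2:218418889-218419039, chr2:218444696-218444846 and chr2:218449060-218449210.
VIL1 region 5: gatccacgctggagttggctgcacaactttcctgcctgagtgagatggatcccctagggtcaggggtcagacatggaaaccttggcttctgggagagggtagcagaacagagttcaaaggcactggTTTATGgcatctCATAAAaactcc
VIL1 region 6: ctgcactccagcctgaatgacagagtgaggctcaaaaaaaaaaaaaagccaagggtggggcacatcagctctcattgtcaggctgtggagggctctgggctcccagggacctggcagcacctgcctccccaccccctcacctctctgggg
VIL1 region 7: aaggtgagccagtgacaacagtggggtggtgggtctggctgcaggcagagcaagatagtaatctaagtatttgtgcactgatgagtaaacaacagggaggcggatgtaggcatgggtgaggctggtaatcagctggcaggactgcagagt
VIL1 region 8: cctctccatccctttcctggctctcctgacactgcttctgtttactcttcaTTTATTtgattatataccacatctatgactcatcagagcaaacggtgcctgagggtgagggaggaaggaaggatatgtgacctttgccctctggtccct

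The GPA33 sequences are the intronic region that differed most clearly between lines, at chr1:167082674-167082936, the region next to the gene's start, at chr1:167090437-167090587, and an intronic region with an ETS core, at chr1:167121601-167121751. The KRT20 sequences are the upstream region that was called in 1 comparison, at chr17:40902110-40902260, and its neighbour with a CDX core, at chr17:40903683-40903833.
GPA33 region 3: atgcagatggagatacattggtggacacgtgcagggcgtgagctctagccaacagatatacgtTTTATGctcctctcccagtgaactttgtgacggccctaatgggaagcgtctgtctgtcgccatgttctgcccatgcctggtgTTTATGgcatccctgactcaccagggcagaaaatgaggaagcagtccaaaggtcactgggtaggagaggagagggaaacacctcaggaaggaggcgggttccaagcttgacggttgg
GPA33 region 5: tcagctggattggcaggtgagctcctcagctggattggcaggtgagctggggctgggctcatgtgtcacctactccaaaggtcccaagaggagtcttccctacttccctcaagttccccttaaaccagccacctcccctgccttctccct
GPA33 region 6: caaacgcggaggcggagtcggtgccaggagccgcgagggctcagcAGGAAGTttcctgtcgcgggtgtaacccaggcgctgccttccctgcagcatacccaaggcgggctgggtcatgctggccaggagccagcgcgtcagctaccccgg
KRT20 region 1: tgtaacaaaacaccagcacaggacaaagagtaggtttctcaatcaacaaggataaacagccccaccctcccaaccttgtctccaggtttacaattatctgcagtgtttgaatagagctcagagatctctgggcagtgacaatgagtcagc
KRT20 region 2: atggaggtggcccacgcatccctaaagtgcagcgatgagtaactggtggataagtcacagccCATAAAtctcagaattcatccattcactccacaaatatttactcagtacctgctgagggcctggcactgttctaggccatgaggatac

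CDX cores were found in VIL1 region 5 at positions 127 and 139, counted from 1 at the region's first base, in VIL1 region 8 at position 52, in GPA33 region 3 at positions 64 and 146 and in KRT20 region 2 at position 63. CDH17 region 5, over that gene's start, also held cores, at positions 105 and 134, and so did CDH17 regions 7, 8 and 9. ETS cores were found in VIL1 region 3, GPA33 regions 1 and 6 and CDH17 region 2. Among the members of 150 bp, 4 of 20 (20.0%) held a CDX core, against 17.8% of all 17356 regions of that length. An ETS core was found in 2 of 20 (10.0%), against 8.16% of all. Neither share stood far from that of the whole table, and 0 of 20 members held both, against 1.34% of all. VIL1 region 7, CDH17 regions 3 and 6 and KRT20 region 1, each called in a comparison below, held none of these letters.

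In the 3001 bp centred on the VIL1 start the table had 2 regions (5 and 6), and the only cores in that stretch were the 2 CDX cores of region 5, with 0 ETS cores. An absent match says only that these letters were not in the window.

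Many members held few counts in EV cells, and the mean level of most was highest in EHF+CDX1 cells. In EV cells 12 of the 27 regions had at most 3 counts in any library and 2 (VIL1 region 7 and CDH17 region 3) had none. The mean CPM was highest in EHF+CDX1 cells at 19 of 27 regions. All 27 passed the filter of 3 CPM in at least 1 library, which uses CPM before TMM scaling. Of these, 7 passed only through EHF+CDX1 libraries (VIL1 region 7, GPA33 regions 1, 4 and 5, CDH17 regions 3 and 5 and KRT20 region 3), 4 of them only through replicate 2, so counts over the members are a description. In a bulk library a larger share of cells with an open site and more insertions per cell cannot be told apart.

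A region is called here when its adjusted p-value in the quasi-likelihood test was under 0.05 over all 30154 regions tested. In EHF+CDX1 against EV cells 2 of 27 regions were called, both higher (GPA33 region 3 and CDH17 region 3), where 2.57% of all regions were. In EHF+CDX1 against EHF cells 4 of 27 were called, against 4.35% of all, and these were GPA33 region 3, CDH17 region 3 and CDH17 region 5, all higher, and CDH17 region 6, which was lower. In EHF+CDX1 against CDX1 cells 3 of 27 were called, all higher, against 2.6% of all (VIL1 region 7, GPA33 region 3 and KRT20 region 1). These comparisons share the EHF+CDX1 libraries. VIL1 region 7 and CDH17 regions 3 and 5 were tested only because EHF+CDX1 libraries passed the filter, and they make up 1 of 2, 2 of 4 and 1 of 3 of these calls, so nothing is read from the shares.

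The lines with 1 factor gave no called member. In EHF against EV cells 0 of 27 regions were called by edgeR and by DESeq2 and 0 had an unadjusted p under 0.05, against 0.00995% and 4.96% of all regions. In CDX1 against EV cells 0 of 27 were called by edgeR and by DESeq2, against 0% of all, and 1 had an unadjusted p under 0.05 (KRT20 region 1, at 0 counts in all CDX1 libraries), against 3.81% of all. At an unadjusted p under 0.05 there were 7 regions in EHF+CDX1 against EV cells (19% of all regions), 10 against EHF (19.6%) and 10 against CDX1 cells (17.5%). Of those against EV, VIL1 region 7, GPA33 region 1 and CDH17 regions 3 and 5 passed the filter only through EHF+CDX1 libraries. Nothing is read from these shares either. The interaction asks whether the log2 change with both factors departs from the sum of the changes with each. It called 0 of 27 by edgeR and by DESeq2, against 0.123% of all, with 4 at an unadjusted p under 0.05, against 9.88% of all. A departure from the sum of both changes was therefore not detected at any single member.

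None of the 9 calls survived every way of processing. DESeq2, scaling by library size alone, and voom with cyclic loess each left 0 calls in all 3 comparisons, although none of these turned the direction of a called region in the comparison that called it. Leaving out EHF+CDX1 replicate 2 also left 0 calls in all 3.

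**Figure D1:**
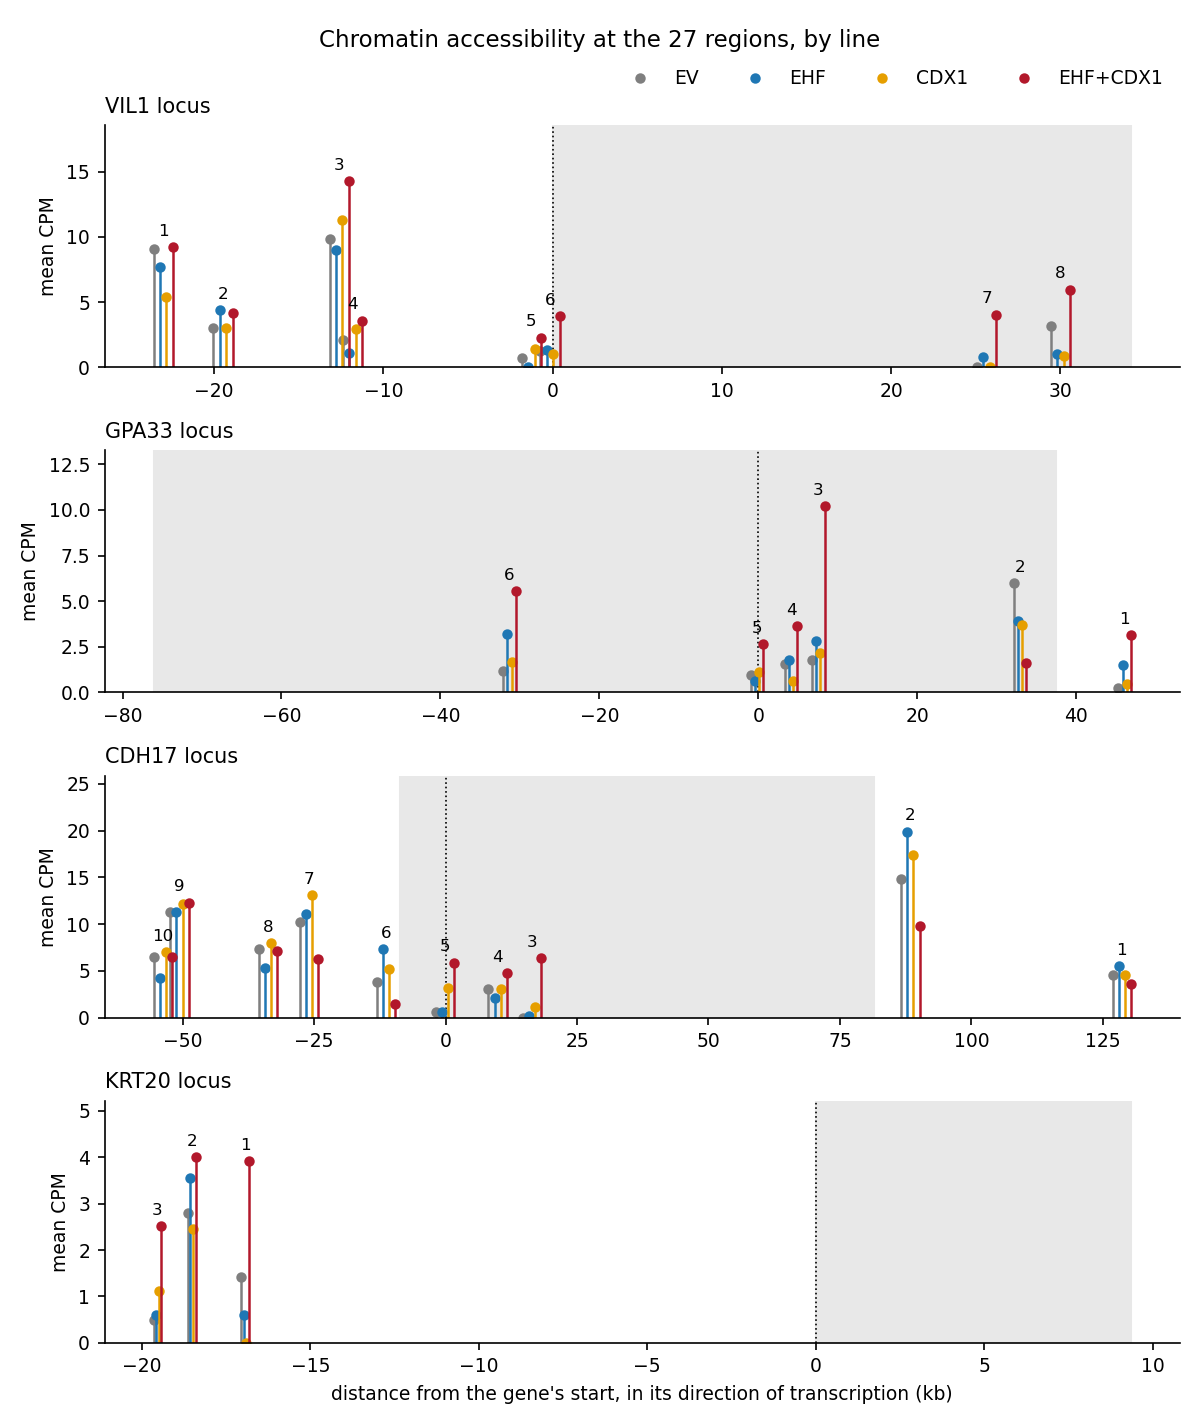
Mean CPM (vertical axis, after TMM scaling, 3 libraries per line) of the 27 regions by distance in kb from each gene's canonical start, with the gene body in grey, the start as a dotted line and the region numbers above; lines are offset sideways for legibility. EHF+CDX1 cells stand highest in and near VIL1, GPA33 and CDH17 except at GPA33 region 2 and CDH17 region 6, while at CDH17 regions 1, 2 and 7, in the flanks, they stand lowest, and KRT20 has regions only upstream.

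The VIL1 window held 8 regions, of which 4 lay upstream near other genes, 2 lay just before the VIL1 start and 2 in its introns. Counts at the latter 4 were few in EV, EHF and CDX1 cells, and most of them lay in EHF+CDX1 replicates 1 and 2, but no region was called against EV. Region 7, 25.65 kb into the gene in an intron, had 0 counts in all EV libraries and all CDX1 libraries and 2, 1 and 0 in EHF libraries. It had 5, 33 and 2 counts in EHF+CDX1 libraries. Every EHF+CDX1 library was thus above every EV and CDX1 library, and replicate 3 did not clear the EHF range.

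Against CDX1 cells region 7 was called (adjusted p = 0.034) and at least 7.21-fold higher, with 3 counts over the CDX1 group as the floor. Against EV cells it was at least 5.51-fold higher, with an adjusted p of 0.053 that missed the threshold. Against EHF cells the ratio of pooled counts per scaled depth was 8.47 (95% counting interval 2.7 to 42.8), with an adjusted p of 0.17. The call against CDX1 was lost without CDX1 replicate 1, 2 or 3 (adjusted p = 0.11, 0.22 and 0.094), and without EHF+CDX1 replicate 2, the only library through which it passed the filter, it could not be tested. Without that library the bounds were 3.2-fold against CDX1 and 2.44-fold against EV, and without CDX1 replicate 2 or EV replicate 2 they were 3.43-fold and 2.87-fold. The call against EV was gained without EHF replicate 2, CDX1 replicate 2 or EHF+CDX1 replicate 3 (adjusted p = 0.037, 0.042 and 0.027).

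Region 8, in an intron 30.01 kb after the start and with the CDX core shown above, had 4, 3 and 2 counts in EV, 2, 3 and 0 with EHF, 0, 3 and 1 with CDX1 and 5, 33 and 9 with both factors. Its level was 3.16 ± 1.17 CPM (SD, n = 3) in EV and 5.96 ± 2.59 in EHF+CDX1 cells, with overlapping libraries. In EHF and CDX1 cells it was lower still, at 1.02 ± 0.931 and 0.877 ± 0.771 CPM, and both groups lay below every EV library. Its log2 fold change was 0.97 ± 0.74 (SE) against EV, 2.42 ± 0.80 against EHF and 2.53 ± 0.84 against CDX1, with adjusted p-values of 0.49, 0.059 and 0.076. The interaction estimate of 3.99 ± 1.28 had an adjusted p of 0.20.

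Region 6, 82 bp before an annotated VIL1 start, had 2, 0 and 1 counts in EV, 0, 1 and 4 in EHF and 2, 0 and 1 in CDX1 libraries. EHF+CDX1 libraries had 9, 28 and 0, so the 3 libraries of that line ran from none to the highest of all 12. The ratio of EHF+CDX1 to EV counts was 5.1 (1.61 to 25.8), and the adjusted p was 0.32. Its fitted direction against EV turned under voom with cyclic loess.

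Region 5, 1173 bp upstream of the start with both its CDX cores near its end, had 2, 0 and 0 counts in EV, 0 in all EHF, 3, 0 and 1 with CDX1 and 4, 16 and 1 with both factors. The ratio to EV was 4.34 (1.06 to 38.2), with an adjusted p of 0.50 and a fitted direction that also turned under cyclic loess. Against EHF cells it was at least 4.45-fold higher, at an adjusted p of 0.079, a bound that was 2.09-fold without EHF replicate 2 and 2.68-fold without EHF+CDX1 replicate 2. Both regions at the VIL1 start therefore had most of their counts in EHF+CDX1 replicates 1 and 2, and no difference from EV was detectable at this depth.

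The other 4 VIL1 regions lay 11766 to 22938 bp upstream of a VIL1 start. Region 1 (chr2:218396033-218396183) overlaps an exon of SLC11A1, 953 bp from the start of CTDSP1, a phosphatase gene, and region 3 (chr2:218406311-218406699) lies beyond CTDSP1 and nearest to MIR26B, the microRNA gene in its intron. Region 3 had the highest mean CPM of the window in every line, but it is 388 bp long where the window's other regions are 150 bp. It was at 9.83 ± 2.21 CPM in EV, 8.97 ± 2.53 with EHF, 11.3 ± 3.69 with CDX1 and 14.3 ± 3.10 with both factors, and its log2 fold change against EV was 0.61 ± 0.41 (adjusted p = 0.42). Region 1 was at 9.05 ± 4.35, 7.72 ± 2.63, 5.36 ± 2.12 and 9.25 ± 0.842 CPM, with a change of 0.16 ± 0.47 (adjusted p = 0.89) whose sign turned without EV replicate 2 and on the deposited log2 values. Regions 2 and 4 had means of 1.05 to 4.40 CPM over the lines. None of these 4 was called in any comparison.

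A larger share of the counts in the VIL1 window lay in and near the gene in EHF+CDX1 libraries. The 4 regions in or within 5 kb of the gene held 27.6%, 10.7% and 12.5% of the window's counts in EV libraries, 16%, 10.6% and 10.8% with EHF, 14.3%, 6.38% and 16.7% with CDX1 and 27.7%, 40.9% and 30.8% with both factors. Each EHF+CDX1 library was above all others, but EV replicate 1, with 8 of 29 counts, came within counting error of EHF+CDX1 replicate 1, with 23 of 83. Pooled over a line's libraries the share was 17.3% in EV (95% Clopper-Pearson interval 9.78 to 27.3), 11.9% with EHF (6.51 to 19.5), 11% with CDX1 (5.62 to 18.8) and 37.1% in EHF+CDX1 cells (32.3 to 42.1). A share within a window does not depend on how libraries are scaled. This split was computed after the values had been seen, so these shares are given with no test. Region 7, with 40 of the 145 counts EHF+CDX1 cells had at these 4 regions, passed the filter only through replicate 2 of that line. Replicate 2 gave 110 of the 145. Nothing is read from the shares.

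**Figure D2:**
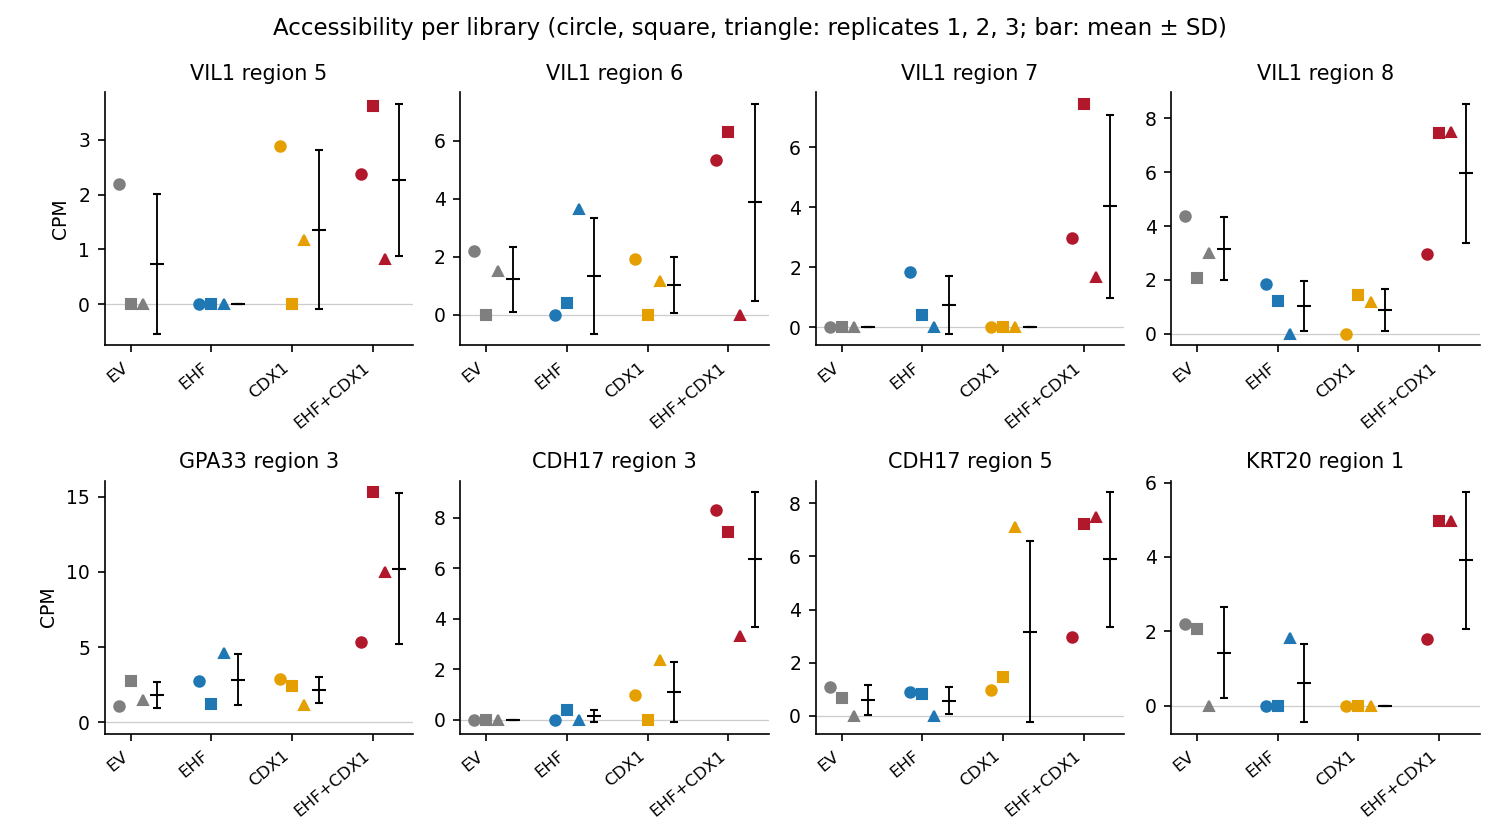
CPM per library at 8 regions, with circles, squares and triangles for replicates 1, 2 and 3 of each line and bars for mean ± SD. EV, EHF and CDX1 libraries sit at 2.37 CPM or below at VIL1 region 7 and CDH17 region 3. At VIL1 region 7 EHF replicate 1 (1.83 CPM) is above EHF+CDX1 replicate 3 (1.66 CPM). EHF+CDX1 replicate 3 is at 0 at VIL1 region 6, and CDX1 replicate 3 reaches 7.1 CPM at CDH17 region 5.

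The GPA33 window held 6 regions, 5 of them within the annotated gene body, which runs 76.1 kb beyond the canonical start because of a long alternative transcript. Region 3, an intronic region of 262 bp that lies 7.57 kb after the canonical start and carries a pair of TTTATG cores, was the only member called in all 3 comparisons with EHF+CDX1 cells. It had 1, 4 and 1 counts in EV, 3, 3 and 5 with EHF, 3, 5 and 1 with CDX1 and 9, 68 and 12 with both factors. After scaling this was 1.79 ± 0.868, 2.84 ± 1.68, 2.16 ± 0.879 and 10.2 ± 5.01 CPM (SD, n = 3). All EHF+CDX1 libraries lay above the other 9, as at 5.32% of all regions.

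The log2 fold change of GPA33 region 3 was 2.41 ± 0.65 against EV (adjusted p = 0.022), 2.05 ± 0.57 against EHF (adjusted p = 0.019) and 2.21 ± 0.59 against CDX1 (adjusted p = 0.021). It was 0.36 ± 0.81 for EHF against EV and 0.20 ± 0.83 for CDX1 against EV, values smaller than their errors. Its direction in EHF+CDX1 cells held under all 24 alternatives in each comparison. Voom with quantile normalisation, the method of the study, gave changes of 2.09, 1.67 and 1.98 that were not called (adjusted p = 0.087, 0.094 and 0.054). Without EHF+CDX1 replicate 2 the changes were 1.91, 1.53 and 1.70 and no longer called (adjusted p = 0.32, 0.41 and 0.40). The call against EV was also lost without EV replicate 1, 2 or 3 (adjusted p = 0.095, 0.083 and 0.075), that against EHF without EHF replicate 1 or 2 (0.056 and 0.21) and that against CDX1 without CDX1 replicate 1, 2 or 3 (0.059, 0.14 and 0.089).

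The region at the canonical GPA33 start, region 5, had 0, 2 and 1 counts in EV, 2, 0 and 0 with EHF, 1, 0 and 2 with CDX1 and 3, 20 and 2 with both factors. Its ratio to EV was 3.44 (1.05 to 17.8) at an adjusted p of 0.52, with a fitted direction that turned under cyclic loess, so a difference was not detectable here. Region 4, 4.15 kb after the start, was at 1.56 ± 0.490 CPM in EV and 3.61 ± 1.07 in EHF+CDX1 cells, a log2 change of 1.13 ± 0.97 (adjusted p = 0.55) that fell to -0.03 under cyclic loess.

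Region 6 (chr1:167121601-167121751), upstream of the canonical start in a stretch shared with the gene STYXL2, and bearing the ETS core shown above, had 0, 3 and 1 counts in EV, 5, 8 and 2 with EHF, 0, 8 and 1 with CDX1 and 12, 24 and 5 with both factors. Its levels were 1.19 ± 1.07, 3.22 ± 1.37, 1.68 ± 1.98 and 5.56 ± 1.49 CPM, highest with both factors and next highest in EHF cells, whose libraries overlapped those of EV and of EHF+CDX1 cells. Against EV the change was 2.05 ± 0.83 in EHF+CDX1 (adjusted p = 0.15) and 1.27 ± 0.91 in EHF cells (adjusted p = 0.96). Region 1 (chr1:167044177-167044327), past the end of the gene and with an ETS core at position 27, had 1 count over the EV libraries, 5 with EHF, 2 with CDX1 and 24 with both factors, a ratio to EV of 9.92 (1.62 to 408) at an adjusted p of 0.22.

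GPA33 region 2 (chr1:167057371-167057521), in an intron 32.93 kb after the start and over a long non-coding RNA gene, went the other way. It had 4, 11 and 4 counts in EV, 3, 11 and 5 with EHF, 1, 16 and 2 with CDX1 and 5, 8 and 0 with both factors. Levels were 6.0 ± 1.60 CPM in EV and 1.59 ± 1.5 in EHF+CDX1 cells, with no overlap. The log2 change of -1.77 ± 0.69 did not pass the test (adjusted p = 0.14) except under voom with quantile normalisation, where it was -2.81 (adjusted p = 0.048). The GPA33 body thus held regions whose estimates differed in sign between the same lines.

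The CDH17 window held 10 regions, 3 of them in the gene. Region 3 (chr8:94191986-94192136), in an intron 16.49 kb after the start, had 0 counts in all EV libraries, 0, 1 and 0 with EHF, 1, 0 and 2 with CDX1 and 14, 33 and 4 with both factors. It was the other member, beside GPA33 region 3, at which each EHF+CDX1 library lay above all other 9. Levels were 0, 0.135 ± 0.235, 1.11 ± 1.19 and 6.36 ± 2.67 CPM (SD, n = 3).

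CDH17 region 3 was at least 7.02-fold higher in EHF+CDX1 than in EV cells (adjusted p = 0.011). Its ratio to EHF cells was 32.4 (5.56 to 1300), resting on 1 EHF count (adjusted p = 0.0073), and its ratio to CDX1 cells was 9.2 (2.97 to 46.1), which did not pass (adjusted p = 0.085). Without EHF+CDX1 replicate 2 the adjusted p was 0.099 against EV and 0.093 against EHF, and without EV replicate 2 it was 0.11 against EV with a bound of 3.66-fold. It was higher than EV under all 24 alternatives.

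Region 5 (chr8:94208541-94208691) covers the canonical CDH17 start and part of its first exon. It had 1, 1 and 0 counts in EV, 1, 2 and 0 with EHF, 1, 3 and 6 with CDX1 and 5, 32 and 9 with both factors. Levels were 0.596 ± 0.555, 0.576 ± 0.501, 3.17 ± 3.41 and 5.89 ± 2.53 CPM, and the spread in CDX1 cells came from replicate 3 at 7.1 CPM, which fell among the EHF+CDX1 libraries. EHF+CDX1 cells thus overlapped CDX1 cells but lay above all EV and EHF libraries.

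The ratio of EHF+CDX1 counts at CDH17 region 5 was 9.74 (3.13 to 48.9) to EHF cells (adjusted p = 0.028), 9.5 (2.49 to 80.8) to EV cells (adjusted p = 0.071) and 2.49 (1.24 to 5.53) to CDX1 cells (adjusted p = 0.46). CDX1 cells alone had a ratio to EV of 3.82 (0.814 to 35.9) with an adjusted p of 1. The call against EHF was lost without EHF replicate 1, 2 or 3 (adjusted p = 0.060, 0.10 and 0.11) and without EHF+CDX1 replicate 2 (0.23). Without EHF replicate 2 the region was called against EV (adjusted p = 0.047).

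Region 4 (chr8:94198610-94198760), in an intron between regions 3 and 5, was open at a low level in every line, at 3.02 ± 0.265 CPM in EV, 2.13 ± 1.40 with EHF, 3.11 ± 0.380 with CDX1 and 4.73 ± 2.99 with both factors. Its log2 change against EV was 0.80 ± 0.69 (adjusted p = 0.55), and it was -0.04 without replicate 2 of every line. Of the 3 regions in the gene, this was the one with counts in all 12 libraries.

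Region 6 (chr8:94219805-94219955), 2502 bp before an alternative CDH17 start, was the only called member that was lower with both factors. It had 0, 10 and 3 counts in EV, 9, 18 and 7 with EHF, 4, 12 and 5 with CDX1 and 3, 11 and 0 with both factors. Levels were 3.81 ± 3.51, 7.32 ± 0.917, 5.18 ± 1.16 and 1.42 ± 1.28 CPM, so EHF+CDX1 cells lay below all EHF and CDX1 libraries and within the wide EV range. The log2 change was -2.0 ± 0.61 against EHF (adjusted p = 0.038), -1.53 ± 0.65 against CDX1 (adjusted p = 0.19) and -1.18 ± 0.70 against EV (adjusted p = 0.35).

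The call at CDH17 region 6 was lost on leaving out any library of EHF (replicates 1 to 3, adjusted p = 0.10, 0.12 and 0.068) or of EHF+CDX1 (0.066, 0.14 and 0.084). Its sign did not turn under any of the 24 alternatives. The interaction estimate was -2.35 ± 0.90 (adjusted p = 0.33).

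The flanks of CDH17 held the member with the highest mean CPM of the 4 loci in EV, EHF and CDX1 cells. Region 2 (chr8:94120039-94120245), 88.41 kb after the start and past the gene's end, carried an ETS core at position 138. It was at 14.8 ± 2.41 CPM in EV, 19.9 ± 3.80 with EHF, 17.4 ± 4.59 with CDX1 and 9.80 ± 4.01 with both factors. Its counts were 11, 23 and 11 in EV, 21, 59 and 18 with EHF, 16, 47 and 12 with CDX1 and 18, 24 and 16 with both factors. EHF+CDX1 libraries lay below all EHF and CDX1 libraries, with a log2 change of -1.15 ± 0.37 against EHF (adjusted p = 0.053), -0.98 ± 0.38 against CDX1 (adjusted p = 0.14) and -0.70 ± 0.40 against EV (adjusted p = 0.33).

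Region 7 (chr8:94234480-94234662), 17177 bp from an alternative CDH17 start and with a pair of CDX cores, was at 10.2 ± 5.38, 11.1 ± 3.24, 13.1 ± 5.88 and 6.28 ± 1.23 CPM in EV, EHF, CDX1 and EHF+CDX1 cells, and was lower with both factors than with CDX1 by -1.05 ± 0.42 on the log2 scale (adjusted p = 0.15). Region 8 (chr8:94242203-94242403) was at 7.29 ± 2.67, 5.28 ± 2.96, 7.98 ± 1.07 and 7.13 ± 3.41 CPM. Region 9 (chr8:94259074-94259301), in the gene GEM, which encodes a small GTP-binding protein, was at 11.3 ± 3.68, 11.3 ± 2.94, 12.2 ± 3.62 and 12.3 ± 1.32 CPM. Log2 changes of regions 8 and 9 against EV were 0.01 ± 0.47 and 0.18 ± 0.41, within their errors, and their signs turned under 9 and 2 of the 24 alternatives. Regions 1 and 10 had means of 3.62 to 7.04 CPM over the lines, region 10 lying over a GEM start.

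Shares in the CDH17 window were also highest with both factors, and those in the GPA33 window were not. The 4 regions in or within 5 kb of the gene, region 6 included, held 8.16%, 13.8% and 13.2% of the window's counts in EV libraries, 14.5%, 15.6% and 15.0% with EHF, 13.6%, 11.5% and 25.8% with CDX1 and 26.7%, 34.9% and 23.2% with both factors. CDX1 replicate 3 lay among the EHF+CDX1 libraries. Pooled, the share was 12.2% (8.01 to 17.7), 15.2% (11.5 to 19.6), 14.8% (11.1 to 19.3) and 31.5% (27.4 to 35.8). The pooled ratio of EHF+CDX1 to EV counts was 2.69 (1.74 to 4.32) over these 4 regions and 0.814 (0.676 to 0.984) over the 6 flanking ones, where at VIL1 it was 4.28 (2.47 to 8.02) over the gene regions and 1.52 (1.15 to 2.02) over the flank. Leaving out EHF+CDX1 replicate 2 gave a VIL1 gene ratio of 2.62 (1.37 to 5.27). It was 2.84 (1.54 to 5.81) without EV replicate 2 and 6.98 (3.13 to 19.3) when EV replicate 1 was left out. At GPA33, where 5 of 6 regions lie in the gene, the gene share was 97.4% in EV, 91.5% with EHF, 95.7% with CDX1 and 89.1% with both factors, and the ratio to EV was 2.19 (1.53 to 3.2) over the gene regions and 9.92 over the lone flanking region, which had 1 EV count. CDH17 regions 3 and 5 passed the filter only through EHF+CDX1 libraries. They held 51 and 46 of that line's 156 gene counts, against 0 and 2 of 24 in EV. VIL1 region 7 and GPA33 regions 1, 4 and 5 also passed only through that line. Nothing is read from these shares and ratios.

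**Figure D3:**
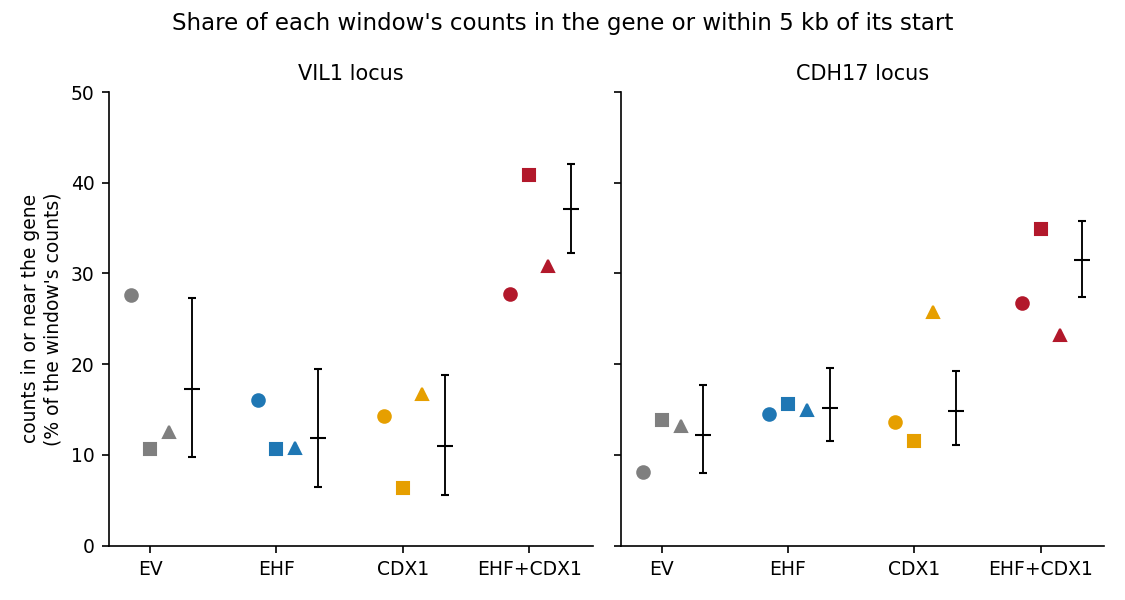
Percent of each window's counts that fell in the gene or within 5 kb of its start at VIL1 and CDH17, per library (circle, square and triangle for replicates 1, 2 and 3), with bars for the pooled share and its 95% Clopper-Pearson interval. EHF+CDX1 libraries run from 27.7% to 40.9% at VIL1 and from 23.2% to 34.9% at CDH17, and EV replicate 1 (VIL1) and CDX1 replicate 3 (CDH17) come close to or into these ranges. VIL1 region 7 and CDH17 regions 3 and 5, counted here, passed the filter only through EHF+CDX1 libraries.

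KRT20 was the locus with the least to measure, since no region lay in the gene or within 5 kb of its start. Its 3 regions sat in a cluster 16868 to 19467 bp upstream of the start. Region 1, singled out after its values were seen, had 2, 3 and 0 counts in EV, 0, 0 and 2 with EHF, 0 in all CDX1 and 3, 22 and 6 in EHF+CDX1 libraries. It was at least 5.59-fold higher in EHF+CDX1 than in CDX1 cells (adjusted p = 0.041), a bound that was 2.66-fold without CDX1 replicate 2. Its ratio to EV cells was 2.56 (0.988 to 8.44) with an adjusted p of 0.53, its libraries overlapped those of EV, and its fitted direction against EV turned under cyclic loess. Against EHF cells the ratio was 9.84 (2.5 to 84.9) at an adjusted p of 0.15.

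The call at KRT20 region 1 was lost without CDX1 replicate 1, 2 or 3 (adjusted p = 0.12, 0.24 and 0.10), under quantile normalisation (0.055), without EHF+CDX1 replicate 2 (0.23) or on leaving out EV replicate 3 (0.050). Region 2, with the CDX core shown above, was at 2.79 ± 2.34 CPM in EV, 3.56 ± 1.68 with EHF, 2.45 ± 3.01 with CDX1 and 4.01 ± 2.46 with both factors, with overlapping libraries throughout. Region 3 (chr17:40904709-40904859) had 1 count over the EV libraries and 20 over the EHF+CDX1 libraries, a ratio of 8.26 (1.32 to 343) that did not pass (adjusted p = 0.32). Without regions at the gene, these counts say nothing of accessibility at the KRT20 start.

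**Figure D4:**
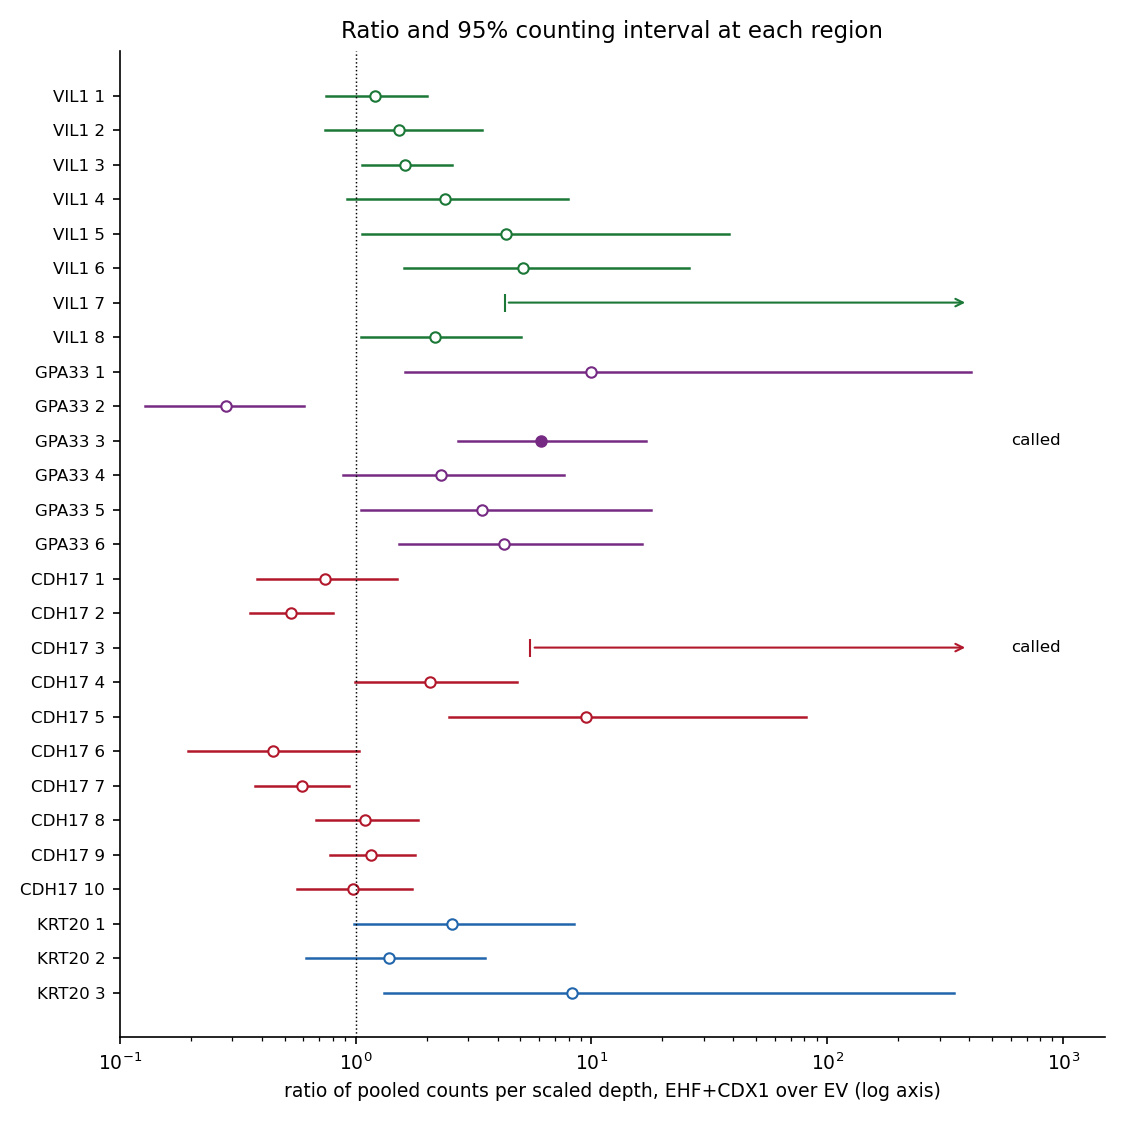
Ratio of pooled counts per scaled depth, EHF+CDX1 over EV cells (log axis), at each of the 27 regions with its 95% counting interval, filled where called; arrows start at the lower bound of the interval where EV had no counts. The 2 called regions are GPA33 region 3 and CDH17 region 3, and the intervals of GPA33 region 2, CDH17 region 2 and CDH17 region 7 lie below 1.

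Estimates against EV were set beside each other for the members in or within 5 kb of the 4 genes and those in the flanks. Of the 13 gene regions 11 had a log2 estimate above 0 in EHF+CDX1 cells, with a median of 1.72, and of the 14 flanking regions 10, with a median of 0.33. Over all 30154 regions the median was 0.18 and 57.6% of estimates were above 0. The medians of the gene regions were 0.01 in EHF and 0.03 in CDX1 cells, near the 0.01 and 0.00 of all regions. These medians moved with scaling. Under voom with cyclic loess, which set the median of all regions to 0.00, the gene regions had a median of 0.10 with 7 of 13 above 0 and the flanking regions one of 0.19 with 9 of 14 above 0, so the order of the medians turned. Under quantile normalisation (all regions 0.01) the medians were 0.68, with 11 of 13 above 0, and 0.23, with 9 of 14. The split was made after the values had been seen. All 7 members that passed the filter only through EHF+CDX1 libraries had estimates above 0 against EV in the main fit. Nothing is therefore read from these medians and counts.

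Counts of regions without overlap between lines are given with their background. In 9 of 27 regions each EHF+CDX1 library lay above each EV library, where 14.8% of all regions did so. The number was 7 of 27 against EHF cells (13% of all) and 9 of 27 against CDX1 cells (13.4% of all). In the other direction EHF+CDX1 cells lay wholly below EV cells at 1 region (7.2% of all), below EHF at 3 (7.71% of all) and below CDX1 cells at 2 (7.04% of all). All 7 members that passed the filter only through EHF+CDX1 libraries are among the 9 that lay above EV, so nothing is read from these shares.

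**Figure D5:**
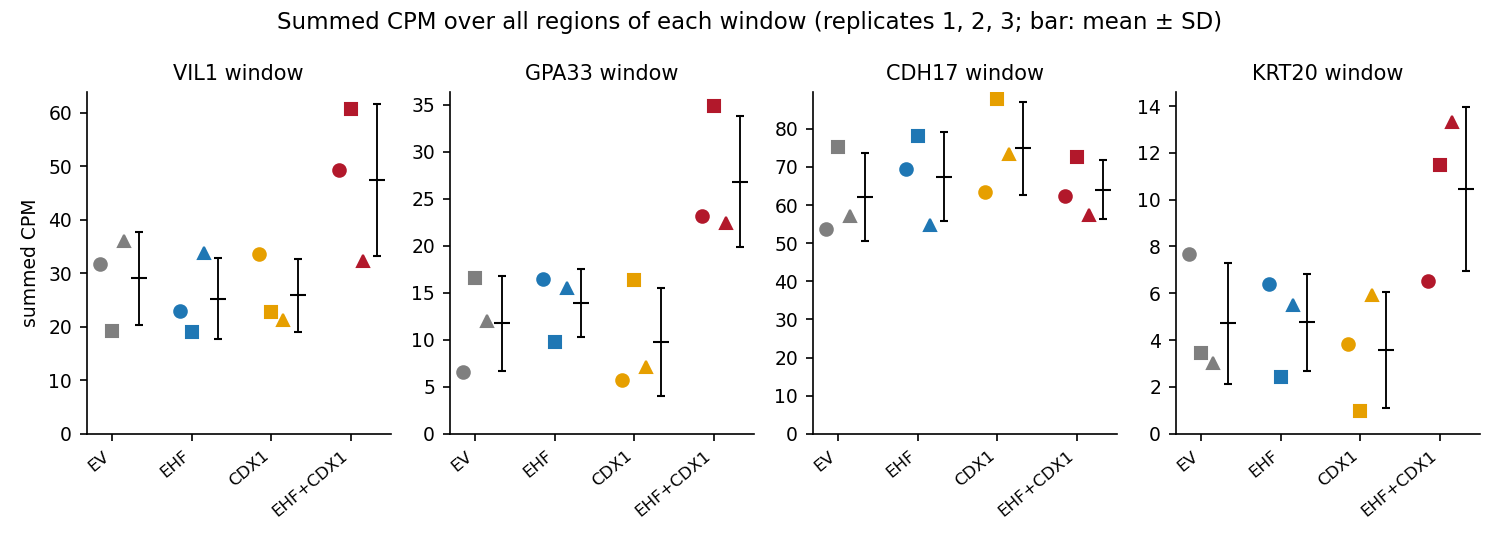
Summed CPM over all regions of each window per library (circle, square and triangle for replicates 1, 2 and 3 of each line), with bars for mean ± SD. EHF+CDX1 libraries are highest at GPA33 (22.4 to 34.8) and overlap the other lines at CDH17 (57.3 to 72.5). GPA33 regions 1, 4 and 5 passed the filter only through EHF+CDX1 libraries.

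Summed over a whole window, the difference between lines did not pass the test at any of the 4 loci. Each sum includes regions that passed the filter only through EHF+CDX1 libraries. These were VIL1 region 7, GPA33 regions 1, 4 and 5, CDH17 regions 3 and 5 and KRT20 region 3. The GPA33 total was 11.7 ± 5.00 CPM in EV, 13.9 ± 3.64 with EHF, 9.76 ± 5.79 with CDX1 and 26.8 ± 6.92 with both factors (SD, 3 libraries each), with all EHF+CDX1 libraries above the other 9. The exact permutation F test over lines gave p = 0.057, or 0.18 adjusted over the 4 loci. VIL1 totals were 29.1 ± 8.70, 25.3 ± 7.65, 25.9 ± 6.78 and 47.5 ± 14.3 CPM, and the exact test gave p = 0.12 (adjusted 0.18).

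KRT20 totals were 4.71 ± 2.58, 4.78 ± 2.08, 3.57 ± 2.49 and 10.4 ± 3.50 CPM, and the exact test gave p = 0.14 (adjusted 0.18). CDH17 totals hardly differed, at 62.1 ± 11.6, 67.5 ± 11.7, 74.9 ± 12.2 and 64.0 ± 7.72 CPM, with an exact p of 0.52 (adjusted 0.52). The smallest p this test can give is 6.5e-05. Without CDX1 replicate 2 the adjusted exact p at GPA33 was 0.049. With the window limited to the gene body and 5 kb on either side the exact test gave p = 0.02 at VIL1 (adjusted 0.06), 0.06 at CDH17 (adjusted 0.072) and 0.072 at GPA33 (adjusted 0.072). This narrower window keeps only the gene regions of the split made after the values had been seen. Among them VIL1 region 7, GPA33 regions 4 and 5 and CDH17 regions 3 and 5 passed the filter only through EHF+CDX1 libraries. Nothing is read from these p-values, from the 0.049 at GPA33 or from the separation of the GPA33 totals, which has no background share beside it.

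On a scale that leaves out introduced and mitochondrial sequence, the members' share was largest in EHF+CDX1 replicate 2. Per 100000 counts in other regions, the 27 members held 43.8, 53.4 and 48.7 in EV, 52.1, 58.7 and 51.5 with EHF, 47.3, 66.3 and 53.1 with CDX1 and 63.5, 87.2 and 59.6 with both factors. CDX1 replicate 2 lay among the EHF+CDX1 libraries. Members with no count at all numbered 7, 5 and 6 in EV, 4, 5 and 6 with EHF, 5, 6 and 5 with CDX1 and 0, 0 and 3 with both factors, numbers that also move with depth.

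Other enterocyte genes were read as a list of 30, covering the brush border, digestive enzymes and surface molecules. Regions within 5 kb of a start were present for 11 of them, 24 regions in all. In EHF+CDX1 against EV cells 0 of 24 were called by edgeR (2.57% of all regions), 8 had an unadjusted p under 0.05, all higher (19% of all), and the median log2 estimate was 0.49. Against EHF cells 3 of 24 were called, all higher (4.35% of all), with 10 at an unadjusted p under 0.05, 8 of them higher (19.6% of all). Against CDX1 cells 1 was called (2.6% of all), with 9 at that limit, 7 of them higher (17.5% of all). These were named after their values were seen. They lay at EPS8, which encodes an actin-capping protein of microvilli, DPP4, a brush border peptidase, and LGALS4, an intestinal galectin, against EHF, and at LGALS4 against CDX1. Summed over the 24 regions the level was 101 to 120 CPM in EV, 116 to 148 with EHF, 107 to 124 with CDX1 and 135 to 167 with both factors. Some of these regions had few counts outside EHF+CDX1 cells. The LGALS4 region had 4, 4, 1 and 64 in EV, EHF, CDX1 and EHF+CDX1 cells. Which libraries carried the list regions through the filter was not checked, so nothing is read from their shares.

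Epithelial marker regions gave 0 of 17 called against EV (2.57% of all), with 3 at an unadjusted p under 0.05, all higher (19% of all), and a median of 1.06. Against EHF cells 1 of 17 was called (4.35% of all), at CLDN4, a tight junction gene. Markers of other cell types gave 0 of 6 called against EV (2.57% of all), with 1 at an unadjusted p under 0.05 (19% of all), lower, at COL1A1. Estimates were above 0 at 3 of these 6 regions, the largest at COL3A1, with a log2 change of 1.95 ± 1.01 (adjusted p = 0.27). The filter was not checked by library for these marker regions either, so nothing is read from their shares. The summed level of the epithelial regions, given above, was highest in EHF+CDX1 libraries, as was that of the enterocyte list, and its part in the differences at the 4 genes was not tested.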

How the data were processed

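ATAC-seq was performed on 12 libraries, 3 each of EV, EHF, CDX1 and EHF+CDX1 HCT116 cells, grouped by their titles. Titles of the line with both factors are abbreviated, and the design text of the series gives their meaning. According to the methods, the authors mapped read pairs to hg38 using Subread and retained unique alignments, ran HOMER 4.7 peak calling on each sample, merged the peaks and counted reads with featureCounts 2.0.0. Which library gave rise to a region is not recorded, and a region exists only where some library had a peak. How duplicates were handled, and whether reads were shifted, is not given in the sources used here. The deposited table holds raw counts per region with no normalisation. The authors also deposited log2 CPM values per library for 27827 regions, 23 of the 27 members among them, and these served only as an alternative. A quantile normalisation is named in the methods but library medians of the deposited log2 values differ.

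Counts were tested with edgeR 4.0.16 in R 4.3.3 (quasi-likelihood F test, robust, TMM scaling, two-sided, all 12 libraries in 1 fit, Benjamini-Hochberg adjustment over 30154 regions that reached 3 CPM in 1 library or more, threshold 0.05). edgeR's common biological coefficient of variation stood at 0.335. The fit was tested on simulated data. CPM values are TMM-scaled, and 3 counts correspond to 0.677 to 4.51 CPM. Where a group had no counts, a fold is given against a floor of 3 counts over the group, and where it had 1 to 3 counts, as a pooled ratio with its 95% counting interval. Intervals and floors cover counting error only. The reads were amplified and carry no molecular identifiers, so they need not be separate molecules. Window totals were compared on log2(CPM + 1) by an exact permutation F test. Genes, starts and exons are from GENCODE 44. A canonical start is that of the transcript it marks as canonical. Region starts were read as 0-based. Mitochondrial matches were found with blastn 2.17.0.

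Regions in a gene, within 5 kb of its start, with a mean count of at least 10 or with an unadjusted p under 0.05 against EV in EHF+CDX1 cells are given in full and the others by ranges. The loci, the gene lists and this rule were chosen with earlier results of these data known. Alternatives were DESeq2 1.42.0, other scalings and filters, a replicate block, voom with quantile normalisation (limma 3.58.1), each library left out, and, chosen after seeing the data, cyclic loess, limma-trend on the deposited log2 values and pooled ratios with a library left out. The sample numbers were not treated as pairs.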

Additional observations from a re-analysis of the deposited data

How the results depend on the processing

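Depth is the main limit: in EV libraries the median member had 1 to 3 counts. In EHF+CDX1 against EV cells the 2 called regions became 4 with a replicate block and 0 without replicate 2 of every line or with DESeq2, library-size scaling, cyclic loess or limma-trend on the deposited log2 CPM, and 0 to 4 with 1 library left out. Against EHF cells the 4 became 2 with quantile normalisation, 0 with DESeq2, library-size scaling, cyclic loess, limma-trend or without replicate 2 of every line, and 0 to 6 with 1 library left out. Against CDX1 cells the 3 became 0 under those same settings other than quantile normalisation, and 0 to 4 with 1 library left out. The replicate block gave 6 and 4 calls in the latter comparisons. It added VIL1 region 7 and CDH17 region 5 against EV, VIL1 region 8 and CDH17 region 2 against EHF and CDH17 region 2 against CDX1. Quantile normalisation gave 2 calls against EV and 3 against CDX1, but not of the same regions. Those against EV were GPA33 region 2 and CDH17 region 3. Those against CDX1 were VIL1 region 7 and CDH17 regions 3 and 6, with GPA33 region 3 and KRT20 region 1 lost. Same-numbered libraries correlated by -0.014 to 0.30 over 18 pairs, 5 of them over 0.1, and differently numbered ones by -0.17 to 0.062. All 12 libraries correlated best on average with their own number. The running sample numbers in the titles also go by replicate, in the same order of lines. The titles do not say what the replicate numbers mean, and outside the replicate block they were not treated as pairs. EHF against EV, CDX1 against EV and the interaction gave 0 calls under all 24 alternatives.

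Log2 changes against EV turned under cyclic loess at VIL1 regions 5 and 6 (both -0.40), GPA33 regions 4 (-0.03) and 5 (-0.35), CDH17 region 8 (-0.10) and KRT20 region 1 (-0.39), as at CDH17 region 10, whose sign turned under 8 of 24 alternatives. KRT20 region 2 turned with quantile normalisation (-0.18). Without replicate 2 of every line they turned at VIL1 region 1 (-0.28) and CDH17 regions 4 (-0.04) and 8 (-0.14). On the deposited log2 values they turned at VIL1 region 1 (-0.09) and CDH17 regions 8 (-0.32) and 9 (-0.06). CDH17 region 8 also turned with the replicate block (-0.01) and quantile normalisation (-0.13). With 1 library left out the range was -0.22 to 0.48 at VIL1 region 1, -0.54 to 0.44 at CDH17 region 8 and -0.02 to 0.35 at CDH17 region 9. The adjusted p of the GPA33 window total ran from 0.049 to 0.45 with 1 library left out, and KRT20 has no value for regions within 5 kb. The causes were not tested.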
